A study of Mus musculus with 6 samples.

Results

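The genes of MHC class II antigen presentation were followed in the pancreas of 6 mice by RNA-sequencing. The 7 genes were chosen by name, as the classical class II chains H2-Aa, H2-Ab1 and H2-Eb1, the peptide exchange chains H2-DMa and H2-DMb1, the invariant chain Cd74 and the class II transactivator Ciita. All 7 were found by Ensembl identifier among the 22556 genes with values, and each reached the mean of 1 TPM (transcript abundance as a share of the library, corrected for gene length) that a gene needed to be tested.

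All mice were wild-type C57BL/6, 8 weeks old by their labels, with no transgene or engineered deletion in any group. The saline group was 2 mice given saline. The AP group was 2 mice with acute pancreatitis brought on by caerulein, a secretagogue that overstimulates acinar cells and was given in 10 hourly injections. The polyI:C-pretreated AP group was 2 mice that received polyI:C, a synthetic double-stranded RNA sensed by Toll-like receptor 3, before the same caerulein course, called pretreated mice from here on. The pancreas was collected at 24 h, timed from the first injection of caerulein. The interval between polyI:C and caerulein was not named for the sequenced mice, and no mice given polyI:C alone were analysed here.

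MHC class II molecules present peptides from endocytosed material to CD4+ T cells. An alpha and a beta chain pair in the endoplasmic reticulum with the invariant chain, which blocks the groove until cathepsins trim it in late endosomes, and the DM heterodimer then exchanges the remaining fragment for peptide. The genes share promoter elements, the X and Y boxes, bound by RFX, CREB and NF-Y, and class II transcription also needs CIITA to be recruited to them. Dendritic cells, B cells and macrophages express class II constitutively or on activation, and interferon-γ induces Ciita in many other cells. C57BL/6 mice carry a deletion in H2-Ea, so their H2-Eb1 transcript has no functional partner chain.

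The classical genes lie together on mouse chromosome 17 (GRCm38, GENCODE M21). H2-Ab1 (ENSMUSG00000073421) spans 34257689 to 34269419 on the plus strand. H2-Aa (ENSMUSG00000036594) spans 34282744 to 34287823 on the minus strand, and H2-Eb1 (ENSMUSG00000060586) spans 34305867 to 34316674 on the plus strand. The DM genes are in the same cluster on the plus strand, H2-DMa (ENSMUSG00000037649) from 34119541 to 34139101 and H2-DMb1 (ENSMUSG00000079547) from 34153072 to 34160230. Cd74 (ENSMUSG00000024610) lies outside the cluster, and Ciita (ENSMUSG00000022504) is on chromosome 16 from 10480059 to 10528418. Of the 100-base stretches of H2-DMb1, 11.3% also occur in H2-DMb2, so reads of these 2 genes may be divided between them. Exons of H2-DMa overlap Brd2 on the other strand over 10.4% of their length, and exons of Ciita overlap Dexi on the other strand over 3.45%. How the counting used strand was not given in the sources used here.

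Promoter sequence is shown for the pair of classical chains present in the RefSeq promoter table (GRCm38.p6), because the shared X and Y boxes are what ties these genes to Ciita. Each stretch holds the 120 bases before the annotated start, 5′ to 3′ on the strand of the gene. Capitals mark matches to ACNGATG (the end of the X1 box), to ATTGG or its reverse complement CCAAT (the core of the Y box), and to TGACGTCA (the cAMP response element, which the X2 box resembles). The last of these was added after the sequences had been seen.
H2-Aa, chr17:34287824-34287943, minus strand: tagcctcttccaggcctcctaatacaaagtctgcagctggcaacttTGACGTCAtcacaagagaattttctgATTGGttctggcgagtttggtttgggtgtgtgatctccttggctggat
H2-Eb1, chr17:34305747-34305866, plus strand: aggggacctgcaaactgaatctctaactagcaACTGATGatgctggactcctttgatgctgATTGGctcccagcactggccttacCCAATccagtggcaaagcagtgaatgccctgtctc

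H2-Eb1 held ACNGATG from -88 to -82 and ATTGG from -59 to -55, which together make the spaced module searched for (ATTGG starting 15 to 40 bases after the start of ACNGATG on the same strand). H2-DMb1 held the same module from -91 to -57, with 30 bases between the motif starts against 29 in H2-Eb1. Among the other class II chains with a window, the module was present in H2-Eb2 and H2-DMb2 and absent from H2-Oa and H2-Ob. Among all 32851 promoters of the table, in windows from 250 bases before to 50 after the start and on both strands, 65 (0.198%) held it. H2-Aa had no module, but held TGACGTCA from -74 to -67 and ATTGG from -48 to -44. Neither of the 2 annotated promoters of H2-DMa held the module. Alone, ACNGATG was found in 9.85% of promoters, ATTGG in 37.4% and TGACGTCA in 1.79%. An IRF element (GAAA, any 2 bases, then GAAA, 3.44% of promoters) was without a match in the windows of these 4 class II genes. The table held no window for H2-Ab1, Cd74 or Ciita.

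**Figure D1:**
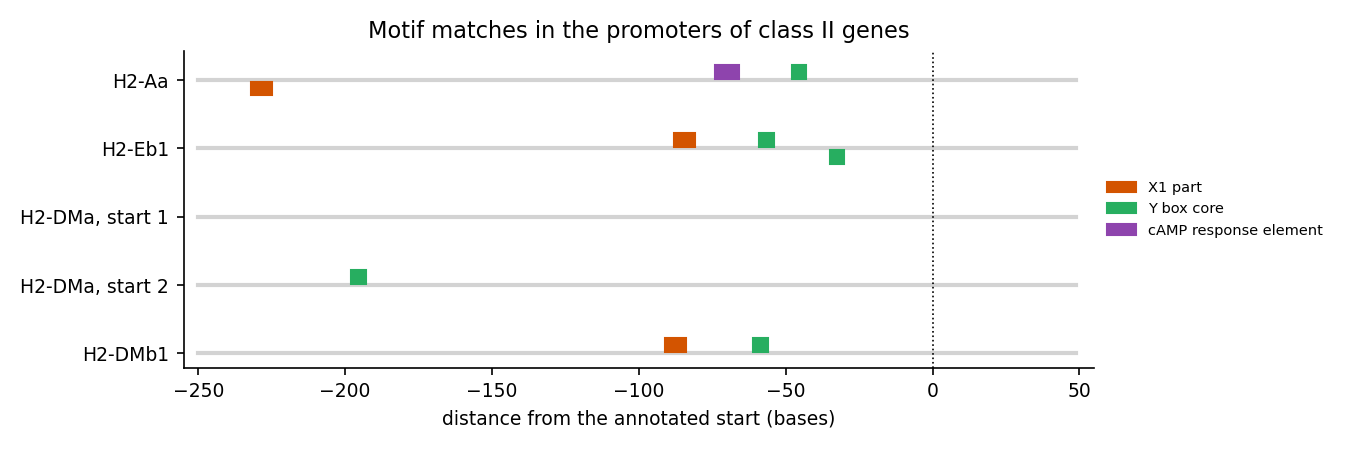
Motif matches (coloured blocks) along the promoter windows of H2-Aa, H2-Eb1, H2-DMa and H2-DMb1, against the distance in bases from the annotated start (dotted line). Blocks above a grey line are on the strand of the gene and blocks below it on the other strand. H2-Eb1 and H2-DMb1 share an ACNGATG block followed by an ATTGG block, while H2-Aa has the cAMP response element before its ATTGG.

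By an estimate from the spacing of low TPM values, reads on the genes with values were unequal between libraries. They came to 3297139 and 3962045 reads for the saline mice and 6900186 to 10826583 for the other 4. Most listed acinar genes had no values, so their reads are missing from these sums, which are not the full depth of the libraries. For H2-DMb1 the estimate came to about 13.6 to 90.5 reads per library, and for H2-Aa to about 127 to 1082. Markers of the labelled tissue were present, since the acinar transcription factor Ptf1a was at 40.8 to 98.3 TPM and the islet hormone gene Iapp at 460 to 723 TPM. Of the 15 acinar markers listed, 5 had values in the tables used here, so a check of the acinar list was void. The labels call the 2 samples of a group separate samples without naming a litter or handling day, and p-values measure the spread between these samples. Each group held 2 mice, for which an exact permutation test cannot reach p = 0.05, so tests came from limma, fitted on log2(TPM + 0.5) across the 16814 genes that averaged 1 TPM or more. This scale understates the change of low genes. A gene was called when its Benjamini-Hochberg adjusted p was at most 0.05 and its change at least 2-fold. Each pair of comparisons shares a group of mice, so their values are given side by side and not as independent evidence.

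H2-Eb1 and Cd74 had the highest levels of the 7 genes. H2-Eb1 was at 25.5 to 155 TPM and led in 5 of the 6 mice, and Cd74, at 20.95 to 144 TPM, led in saline replicate 2. H2-Eb1 and Cd74 differed by less than the spread between mice of a group. H2-Aa and H2-Ab1 followed, and in every mouse these 4 genes lay above H2-DMa, H2-DMb1 and Ciita, which stayed at or below 19.95 TPM. Across groups, AP mice had the highest mean and pretreated mice the lowest for all 7 genes. Summed over the 7 genes, saline mice had 216 and 153 TPM, AP mice 285 and 543 TPM, and pretreated mice 83.5 and 88.3 TPM. In bulk pancreas, fewer class II positive cells and less class II RNA per cell cannot be told apart.

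**Figure D2:**
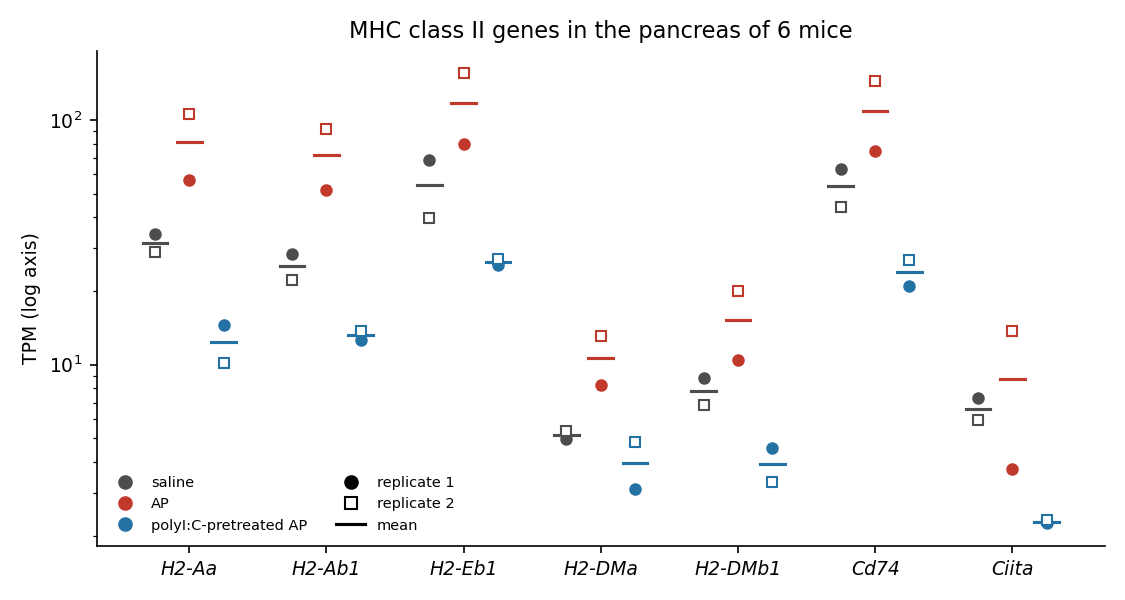
TPM on a log axis of the 7 class II genes in the 6 mice. Filled circles are replicate 1, open squares replicate 2 and horizontal lines the group means, with saline mice in grey, AP mice in red and pretreated mice in blue. Both blue points lie below both grey and both red points for every gene, and the red squares (AP replicate 2) lie above the red circles for every gene.

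The classical chains form the peptide-binding molecule. H2-Aa, the alpha chain of I-A, was at 34.1 and 28.8 TPM in saline mice, 56.8 and 106 TPM in AP mice, and 14.5 and 10.1 TPM in pretreated mice. No 2 of the 3 groups overlapped. On the log2 scale H2-Aa was higher by 1.29 in AP than in saline mice (SE 0.31, limma adjusted p = 0.0150). It fell by 2.62 in pretreated against AP mice (SE 0.31, limma adjusted p = 0.0207), and was lower than in saline mice by a log2 difference of -1.33 (SE 0.31, limma adjusted p = 0.0140). H2-Aa was thus called in all 3 comparisons.

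H2-Ab1, the beta chain that pairs with H2-Aa, was at 28.2 and 22.2 TPM in saline mice, 51.9 and 91.7 TPM in AP mice, and 12.6 and 13.8 TPM in pretreated mice. Its groups did not overlap either. It was higher by 1.44 on the log2 scale in AP than in saline mice (SE 0.27, limma adjusted p = 0.00614), and fell by 2.34 in pretreated against AP mice (SE 0.27, limma adjusted p = 0.0207). Against saline mice the log2 difference was -0.90 (SE 0.27, limma adjusted p = 0.0394), less than 2-fold and so not called. The alpha to beta ratio, H2-Aa over H2-Ab1 in TPM, lay between 1.09 and 1.30 in 5 mice and was 0.736 in replicate 2 of the pretreated mice.

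H2-Eb1, the I-E beta chain, was at 68.8 and 39.8 TPM in saline mice, 79.5 and 155 TPM in AP mice, and 25.5 and 27.1 TPM in pretreated mice. The order of the groups was that of H2-Aa, without overlap, but the saline mice were farther apart. No comparison of H2-Eb1 was called. Its log2 difference was 1.08 in AP against saline (SE 0.36, limma adjusted p = 0.0517), -2.06 in pretreated against AP (SE 0.36, limma adjusted p = 0.0580) and -0.98 in pretreated against saline (SE 0.36, limma adjusted p = 0.0704).

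Cd74, whose protein escorts class II chains to the endosome, was at 63.3 and 44.2 TPM in saline mice, 74.8 and 144 TPM in AP mice, and 20.95 and 26.8 TPM in pretreated mice. All 3 groups were apart. Cd74 fell by 2.11 on the log2 scale in pretreated against AP mice (SE 0.33, limma adjusted p = 0.0456), and was lower than in saline mice by a log2 difference of -1.14 (SE 0.33, limma adjusted p = 0.0333). In AP against saline mice its log2 difference of 0.97 was not called (SE 0.33, limma adjusted p = 0.0566). Cd74 over H2-Ab1 in TPM ranged from 1.44 to 2.24 over the 6 mice.

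The DM chains, which catalyse peptide exchange, were lower in level than the classical chains in each mouse. H2-DMa was at 4.97 and 5.35 TPM in saline mice, 8.28 and 13.1 TPM in AP mice, and 3.12 and 4.82 TPM in pretreated mice. H2-DMb1 was at 8.82 and 6.83 TPM, 10.5 and 19.95 TPM, and 4.55 and 3.33 TPM in the same groups. For both genes, every AP mouse was above every saline mouse and every pretreated mouse below, but no comparison was called. The log2 difference in pretreated against AP was -1.32 for H2-DMa (95% confidence interval -2.09 to -0.55, limma adjusted p = 0.132) and -1.77 for H2-DMb1 (-2.71 to -0.83, limma adjusted p = 0.1003). In pretreated against saline, the interval of H2-DMa ran from -1.14 to 0.40 and that of H2-DMb1 from -1.85 to 0.03, so a 2-fold fall was within both.

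Ciita, the transactivator on which the other 6 genes depend, was at 7.30 and 5.93 TPM in saline mice, 3.74 and 13.7 TPM in AP mice, and 2.25 and 2.31 TPM in pretreated mice. The AP mice lay on either side of the saline mice, so Ciita was the single gene of the 7 whose AP and saline groups overlapped. Its log2 difference in AP against saline was 0.13 (95% confidence interval -1.08 to 1.35, limma adjusted p = 0.868), and its sign turned to -0.74 without AP replicate 2, to -0.01 without saline replicate 2, to -0.29 with median-of-ratios scaling and to -0.05 with voom on estimated reads. Both pretreated mice were below all 4 other mice. The log2 differences there, -1.48 against AP (SE 0.51, limma adjusted p = 0.262) and -1.35 against saline (SE 0.51, limma adjusted p = 0.0767), were not called. Ciita over H2-Ab1 in TPM was 0.259 and 0.267 in saline mice, 0.0721 and 0.150 in AP mice, and 0.178 and 0.167 in pretreated mice.

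Over the 7 genes in AP against saline mice, 2 were called higher (H2-Aa and H2-Ab1) and none lower, where 18.2% of all tested genes were called higher and 4.03% lower. The median log2 difference was 0.97 for the class II genes and 0.45 for all tested genes. Both AP mice lay above both saline mice for 6 of the 7 genes, and for 52.6% of all tested genes. The share of class II genes called is read against that of the table, in which more genes were called higher than lower. With median-of-ratios scaling, which took the median of all genes from 0.45 to 0.04, 1 of the 7 genes was called and their median was 0.53. That scaling turned the split of all calls from 3053 higher and 677 lower into 1534 higher and 1249 lower.

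The AP mice were unlike each other. AP replicate 2 exceeded AP replicate 1 by 1.58 to 1.96 times for 6 of the 7 genes and by 3.67 times for Ciita. B cell markers moved in the same direction, with all 9 genes of the list higher in AP replicate 2 and a summed level of 63.0 TPM there against 9.15 TPM in AP replicate 1. Other lists did so too, with 7 of 7 T cell, 9 of 10 macrophage and 9 of 10 dendritic cell markers higher in AP replicate 2. For monocyte and neutrophil markers it was 4 of 6 and 2 of 6. Lymph node stroma markers summed to 5.83 TPM in AP replicate 1 and 60.1 TPM in AP replicate 2, with 3 of 4 genes higher in the latter. That sum was 12.3 and 17.3 TPM in saline mice and 41.9 and 13.2 TPM in pretreated mice. The B cell sum was 17.7 and 21.4 TPM in saline mice and 12.3 and 3.599 TPM in pretreated mice. Cd79b, a subunit of the B cell receptor, had the highest mean of the list and was at 1.56 TPM in AP replicate 1 and 19.0 TPM in AP replicate 2. The low class II chains moved with it, since H2-Ob, a chain of the DO modulator found mainly in B cells, was at 1.47 and 6.21 TPM, and H2-DMb2 at 1.36 and 10.1 TPM. The part of B cells in the class II level was not tested. Without AP replicate 2, AP against saline had 1 of the 7 genes called, and without AP replicate 1 it had 4. It had 1 without saline replicate 1 or without either pretreated mouse, and 0 without saline replicate 2, where 1 passed in limma at an unadjusted p of at most 0.05 and 2-fold.

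Class II genes were lower in pretreated mice than in AP mice. In this comparison 3 of the 7 genes were called lower (H2-Aa, H2-Ab1 and Cd74) and none higher, where 0.404% of all tested genes were called lower and 0.44% higher. At an unadjusted p of at most 0.05 with a 2-fold change, all 7 were lower, where 2.38% of all tested genes were. Both pretreated mice lay below both AP mice for 7 of 7 genes, and for 22.1% of all tested genes. The median log2 difference was -2.06 for the class II genes and 0.04 for all tested genes. The mean TPM in pretreated mice was 0.152 of that in AP mice for H2-Aa, 0.184 for H2-Ab1 and 0.371 for H2-DMa, the least lowered. Leaving out any 1 of the 6 mice ended all 3 calls, and over all genes the 74 called higher and 68 called lower then fell to 0 to 41 and 0 to 37. In those fits 5 to 7 of the class II genes were still lower at an unadjusted p of at most 0.05 and 2-fold, and the median of the 7 lay between -2.54 and -1.58. Without AP replicate 2, the mouse with high B cell markers, it was -1.58 and 5 genes were lower by that criterion.

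Pretreated mice were also below saline mice. H2-Aa and Cd74 were called lower, 2 of 7 genes, where 2.97% of all tested genes were called lower, and no class II gene was called higher, where 16.9% of all tested genes were. Both mice lay below both saline mice for 7 of 7 genes, and for 14% of all tested genes. The median log2 difference was -0.98 for the class II genes and 0.48 for all tested genes. With median-of-ratios scaling 6 of the 7 were called lower and their median was -1.45. Without pretreated replicate 1 or 2, or without saline replicate 1 or 2, limma called none, with 0 to 4 lower at an unadjusted p of at most 0.05 and 2-fold, and without either AP mouse it called 3.

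**Figure D3:**
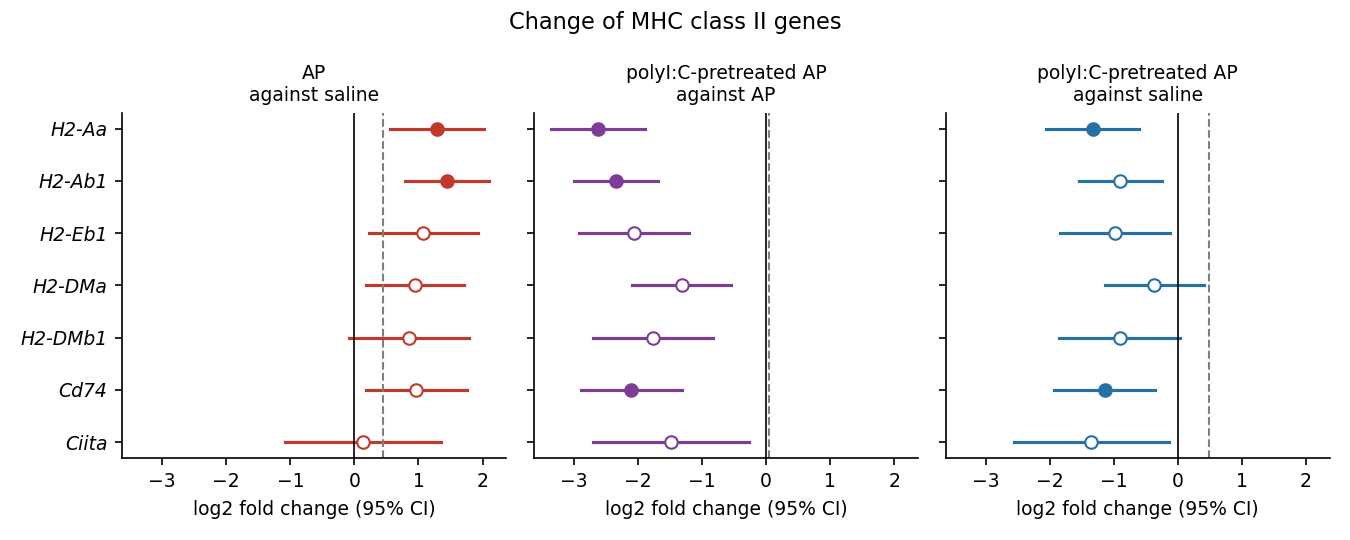
Log2 fold change of each class II gene with its 95% confidence interval in the 3 comparisons. Filled points were called, the solid line marks no change and the dashed line the median of all 16814 tested genes. In the middle panel all 7 intervals lie below 0, and in the first panel the interval of Ciita spans 0 widely.

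The other class II chains were low. H2-Eb2, H2-DMb2 and H2-Ob were tested, none was called in any comparison, and H2-Oa did not reach a mean of 1 TPM. H2-Ob showed the lowest log2 difference of the 3 in pretreated against AP mice, -2.10 (SE 0.71, limma adjusted p = 0.255). H2-Ea was not analysed here.

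The factors that bind class II promoters were not called lower in any comparison. Of Rfx5, Rfxap, Rfxank, Nfya, Nfyb, Nfyc and Creb1, none was called by limma in pretreated against AP mice, 0 of 7 also at an unadjusted p of at most 0.05, and their median log2 difference was -0.0048 there. Rfx5, the DNA-binding subunit of RFX, was at 1.81 and 1.95 TPM in saline mice, 6.69 and 6.31 TPM in AP mice, and 6.34 and 6.61 TPM in pretreated mice. It was the 1 factor of the 7 called higher in AP against saline (log2 difference 1.56, SE 0.21, limma adjusted p = 0.00153) and in pretreated against saline (1.55, SE 0.21, limma adjusted p = 0.00170). Its pretreated and AP mice overlapped, with a log2 difference between -0.50 and 0.49 at 95% confidence. Intervals for the same comparison ran from -0.97 to 0.30 for Rfxap, -0.50 to 0.61 for Rfxank, -0.59 to 0.41 for Nfya, -0.46 to 0.28 for Nfyb, -0.24 to 0.58 for Nfyc and -0.07 to 0.43 for Creb1. None of these 7 intervals reached a 2-fold change in either direction.

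The interferon-γ axis leads to Ciita, with IRF1 among its factors. Irf1 was at 7.35 and 6.50 TPM, 28.3 and 29.0 TPM, and 21.1 and 27.7 TPM in saline, AP and pretreated mice. Irf1 rose in both caerulein groups against saline, with log2 differences of 1.98 (SE 0.17, limma adjusted p = 3.34e-04) and 1.73 (SE 0.17, limma adjusted p = 5.83e-04). Irf8, another factor of this list, was called higher in AP against saline mice (log2 difference 1.44, SE 0.39, limma adjusted p = 0.0255). In pretreated against AP mice its log2 difference of -1.21 was not called (SE 0.39, limma adjusted p = 0.239). The part of either factor in the Ciita level was not tested. Of the 7 genes of this axis tested and reported, 4 were called higher in AP against saline mice and 4 in pretreated against saline mice, with none lower. The shares of all tested genes called higher were 18.2% and 16.9%. Cxcl9, a chemokine that interferon-γ induces, was the 1 gene of the 7 called higher in pretreated against AP mice, at 5.74 and 7.54 TPM against 0.431 and 1.02 TPM (log2 difference 2.57, SE 0.42, limma adjusted p = 0.0497). Ifng itself was not analysed here.

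The proteases that process antigen and the invariant chain rose in pancreatitis. Of 6 genes, 5 were called higher in AP against saline mice and in pretreated against saline mice, with none lower. The shares of all tested genes called higher there were 18.2% and 16.9%. Ctsl, a cathepsin of the endosome and lysosome, had the highest level, at 1813 and 1482 TPM in saline mice against 12973 and 11957 TPM in AP mice and 13119 and 9899 TPM in pretreated mice. Lgmn, a lysosomal asparaginyl endopeptidase, had the largest rise of the list in AP mice, a log2 difference of 3.61 (SE 0.37, limma adjusted p = 5.83e-04). The other 2 called in both were Ctsb and Ctsd, with log2 differences of 1.96 and 1.33 in AP against saline mice. Ifi30, a lysosomal thiol reductase, stayed under 2-fold, with log2 differences of 0.86 and 0.98 against saline mice.

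Ctss, the protease that removes the invariant chain in antigen-presenting cells, was the 1 gene of this list called lower in pretreated against AP mice. Lgmn, Ctsb and Ctsd were also lower in both pretreated than in both AP mice, with log2 differences of -0.79, -0.30 and -0.27 that were not called, and the difference between Ctss and these genes was not tested. Ctss levels were 43.5 and 31.9 TPM in saline mice, 232 and 286 TPM in AP mice, and 91.5 and 93.2 TPM in pretreated mice, and the gene fell by 1.48 on the log2 scale against AP (SE 0.18, limma adjusted p = 0.0217). It remained above saline by 1.30 (SE 0.18, limma adjusted p = 0.00187), while its substrate Cd74 was below saline. Ctss over H2-Ab1 in TPM was 1.54 and 1.44 in saline mice, 4.47 and 3.12 in AP mice, and 7.24 and 6.76 in pretreated mice.

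Among 6 genes of class II turnover and costimulation, Cd80 was called higher in AP against saline mice and Cd83 lower in pretreated against saline mice, with no other call. Cd80, a ligand of CD28 on T cells, was at 1.21 and 0 TPM in saline mice and 4.40 and 3.92 TPM in AP mice (log2 difference 2.33, SE 0.66, limma adjusted p = 0.0303). Cd83, which keeps class II on the cell surface by opposing the ubiquitin ligase MARCH1, was at 3.52 and 11.005 TPM in saline mice and 0.356 and 1.70 TPM in pretreated mice (log2 difference -2.31, SE 0.67, limma adjusted p = 0.0333). These low genes rest on few reads, an estimated 0 to 39 per library for Cd80 and 2 to 96 for Cd83.

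Class I genes, which share the cluster on chromosome 17 in part and present cytosolic peptides, were compared with the class II genes. Of 11 genes of the class I pathway, 10 were called higher in AP against saline, 3 in pretreated against AP (H2-K1, H2-D1 and B2m) and 10 in pretreated against saline, with none lower in any. Over all tested genes, 18.2%, 0.44% and 16.9% were called higher in these comparisons. H2-K1, a classical class I heavy chain, was at 102 and 92.0 TPM in saline mice, 348 and 379 TPM in AP mice, and 918 and 911 TPM in pretreated mice. Nlrc5, the class I counterpart of Ciita, was at 1.85 and 1.56 TPM, 2.96 and 5.43 TPM, and 10.3 and 9.11 TPM in the same groups. The median log2 difference in pretreated against AP was 0.91 for class I and -2.06 for class II. H2-K1 over H2-Ab1 in TPM was 3.602 and 4.15 in saline mice, 6.70 and 4.13 in AP mice, and 72.6 and 66.1 in pretreated mice. Summed over both lists, class I over class II was between 3.78 and 6.90 in the saline and AP mice and 78.6 and 76.9 in the pretreated mice. The ratio of class I to class II was not put to a test of its own.

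**Figure D4:**
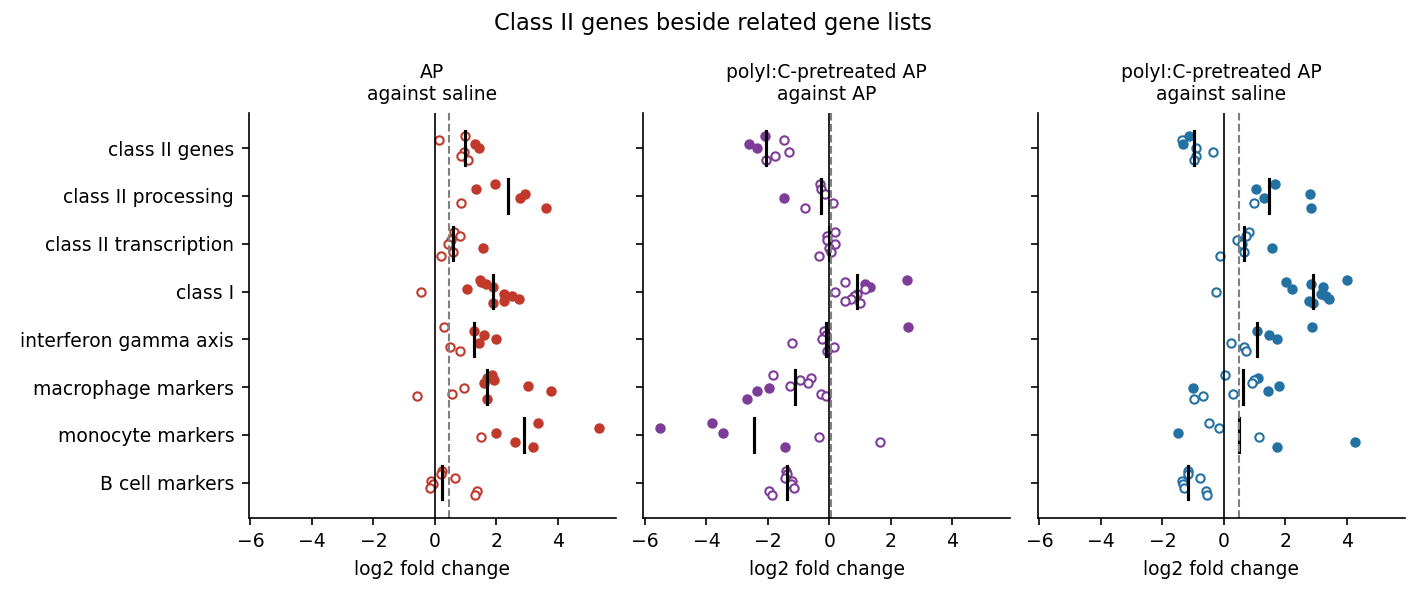
Log2 fold change of single genes (points) by list in the 3 comparisons, filled where the gene was called. Black bars are list medians and dashed lines the median of all tested genes. In the middle panel the class II bar stands at -2.06 and the class I bar at 0.91, and the monocyte and macrophage bars stand at -2.45 and -1.10.

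Markers of cells that can carry class II were read beside it. Of 10 macrophage markers, 7 were called higher in AP against saline mice, 3 were called lower in pretreated against AP mice (Csf1r, Mrc1 and Fcgr1), and in pretreated against saline mice 3 were called higher and 1 lower. Over all tested genes, 18.2% were called higher in AP against saline mice and 0.404% lower in pretreated against AP mice. In pretreated against saline mice 16.9% of all tested genes were called higher and 2.97% lower. The summed macrophage level was 329 and 192 TPM in saline mice, 720 and 956 TPM in AP mice, and 439 and 372 TPM in pretreated mice, with C1qb the highest by mean. This sum was carried by the complement genes C1qa, C1qb and C1qc. Without them, the other 7 markers summed to 123 and 81.4 TPM in saline mice, 286 and 329 TPM in AP mice, and 104 and 87.9 TPM in pretreated mice, so pretreated and saline mice overlapped. Csf1r and Mrc1 were lower in both pretreated than in both saline mice, with log2 differences of -1.01 and -0.98 of which that of Csf1r was called. The 3 called higher in pretreated against saline mice were Cd68, C1qa and Fcgr1, with log2 differences of 1.78, 1.11 and 1.44. Class II over the macrophage sum with the complement genes was 0.654 and 0.796 in saline and 0.397 and 0.568 in AP mice. In pretreated mice it was 0.190 and 0.238. Class II over Csf1r alone was 10.3 and 8.07 in saline, 8.31 and 12.2 in AP, and 8.33 and 9.54 in pretreated mice, which overlapped. The ratio thus depended on the marker chosen and was not tested.

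Of 6 monocyte markers, 5 were called higher in AP against saline and 4 were called lower in pretreated against AP mice, among them Ccr2, the receptor that draws monocytes from blood, at 36.2 and 34.4 TPM in AP mice against 2.17 and 1.92 TPM. Their summed level, led by Chil3, was 45.3 to 77.5 TPM in saline mice, 506 and 647 TPM in AP mice, and 94.3 and 425 TPM in pretreated mice, of which Plac8 made up 394 TPM in the last mouse. Over all tested genes, 18.2% were called higher in AP against saline and 0.404% lower in pretreated against AP mice.

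Dendritic cell markers summed to 42.9 and 36.4 TPM in saline, 33.9 and 46.3 TPM in AP, and 28.6 and 23.2 TPM in pretreated mice. AP and saline mice thus overlapped in this sum. Zbtb46 had the highest mean of the list and was at 16.3 and 18.7 TPM in AP mice against 32.7 and 26.1 TPM in saline mice, a difference under 2-fold. Without Zbtb46, the other 9 markers summed to 10.2 and 10.3 TPM in saline, 17.7 and 27.7 TPM in AP, and 8.73 and 5.78 TPM in pretreated mice. Zbtb46 was left out after its values had been seen, so this second sum is no separate evidence. Flt3, the receptor for a dendritic cell growth factor, was at most at 0.443 TPM in saline mice, 1.78 and 2.53 TPM in AP mice, and 0 and 0.0399 TPM in pretreated mice, but did not reach the mean of 1 TPM. Itgax was at 0.375 and 1.69 TPM, 3.93 and 4.52 TPM, and 1.32 and 1.99 TPM in the same groups, and was the 1 of 6 tested that was called, higher in AP against saline mice. Batf3 and Ccr7 were likewise highest in both AP mice, at 1.56 and 3.03 TPM and at 1.42 and 5.05 TPM. Clec9a, Clec10a and Siglech of the same list overlapped between AP and saline mice. Clec9a was at 3.61 and 2.62 TPM in saline mice and 2.35 and 4.25 TPM in AP mice. Ccr7, the receptor that guides mature dendritic cells to lymph nodes, had a log2 difference of -2.47 in pretreated against AP mice that was not called (SE 0.78, limma adjusted p = 0.227). Xcr1 was below 1 TPM in every mouse, with its highest value, 0.923 TPM, in saline replicate 1. Cd209a was listed at 0 in all 4 mice outside the AP group. Of 8 B cell markers tested none was called in any comparison, and at an unadjusted p of at most 0.05 with a 2-fold change 1 was lower in pretreated against AP mice. T cell markers summed to 3.83 to 11.2 TPM and neutrophil markers to 5.15 to 68.2 TPM. Lymph node stroma markers, among them Cxcl13, summed to 5.83 to 60.1 TPM and were highest in AP replicate 2. The part of each cell type in the class II values was not tested.

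**Figure D5:**
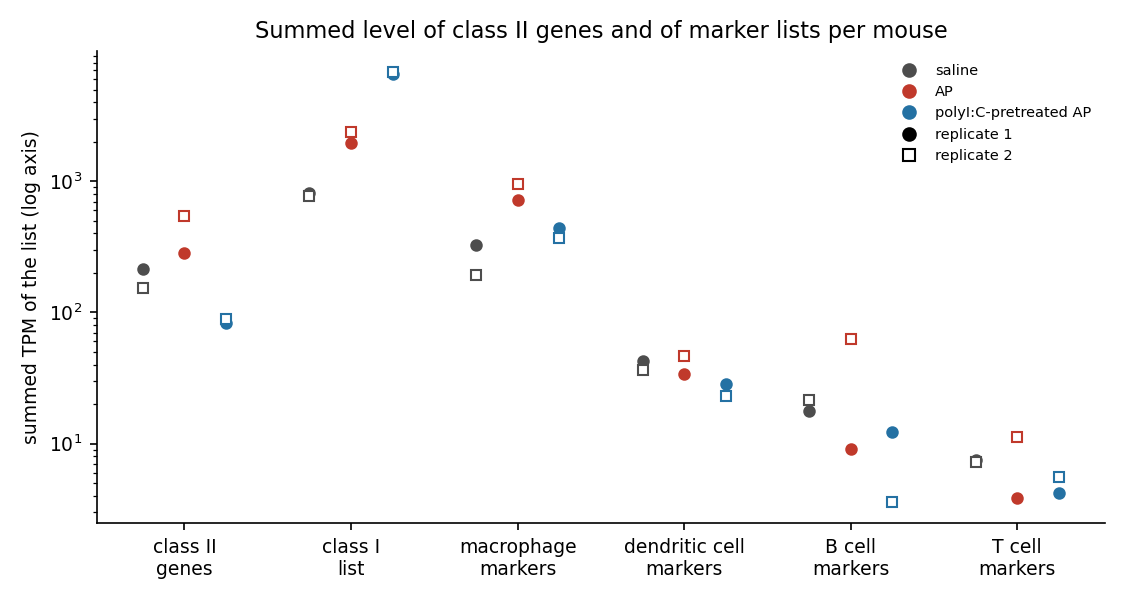
Summed TPM on a log axis of the 7 class II genes, the class I list and 4 lists of cell type markers in each mouse, with saline mice in grey, AP mice in red and pretreated mice in blue (circles replicate 1, squares replicate 2). The blue points are lowest for class II, at 83.5 and 88.3 TPM, and highest for class I, and the red square stands apart for B cell markers, at 63.0 TPM.

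The gene whose levels were most like those of the class II genes was Csf1r, the receptor for macrophage colony stimulating factor. Likeness was Pearson's r over the 6 mice with the mean centred log2 value of the 7 genes. It was ranked among the 9395 genes whose mean reached 10 TPM, and is given as a description of libraries that differ in estimated reads. Csf1r had r = 0.975 and was followed by Tgfb3 (0.972), Rplp2 (0.958), Dennd6b (0.943), F13a1 (0.941), Mettl1 (0.941), Tmem150a (0.939), Pkdcc (0.937), Mrc1 (0.931) and Zc3h7a (0.930). The class II genes themselves ranged from 0.886 for Ciita to 0.993 for Cd74. Each of them is part of the mean it was compared with, which raises its r, so these values are not comparable with those of the other genes. Csf1r, F13a1 and Mrc1 were the 3 of the 10 called lower in pretreated against AP mice, and the other 7 were called in no comparison.

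Csf1r was at 20.9 and 19.0 TPM in saline mice, 34.3 and 44.5 TPM in AP mice, and 10.02 and 9.26 TPM in pretreated mice. Its log2 difference was 0.96 in AP against saline, -1.97 in pretreated against AP and -1.01 in pretreated against saline (SE 0.16 in each). Csf1r was picked for its likeness over the same 6 mice, so these values are a description of that choice and no separate evidence.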

How the data were processed

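RNA from the pancreas of 6 mice was sequenced, 2 per group, with groups taken from the sample labels. The authors used Trimmomatic for trimming, STAR for mapping (mm10), htseq-count for counting and DESeq2 for testing counts. The tables they deposited hold TPM for each gene in 1 mouse, and these deposited TPM were used without rescaling. The step from counts to TPM, and how strand was used, were not given in the sources used here. The labels name both a ribosomal RNA depletion kit and a stranded mRNA kit. TPM values are shares of a library, so a large change in abundant transcripts shifts all others.

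Of 22556 identifiers, 22490 matched GENCODE M21. Genes whose mean reached 1 TPM were tested with limma 3.58.1 (R 4.3.3) on log2(TPM + 0.5), with 1 mean per group, all 6 mice sharing the spread, a variance prior following log2(mean TPM × exon length + 1), and Benjamini-Hochberg adjustment over the 16814 genes tested. The code was tested on simulated data. Reads per library, on the genes with values only, were estimated from the spacing of low TPM values. Between 33.7% and 38.7% of low values fell within 0.1 of a whole number of reads, against 20.3% to 21.0% with gene lengths shuffled, so reads were not recovered as whole numbers and a count test was not used as the main result. Promoters came from RefSeq (GRCm38.p6).

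The 7 genes and all gene lists were chosen with earlier results of these data known. All 7 genes are given in full, the other class II lists by counts with values for called genes, promoter factors and Irf1, cell type lists by counts, sums and leading gene, and likeness by the 10 highest correlations. Values of H2-Ob, H2-DMb2, Ptf1a, Iapp, Xcr1, Cd209a, Flt3, Itgax, Batf3, Ccr7, Zbtb46, Clec9a, Clec10a, Siglech, H2-K1, Nlrc5, Ccr2, Irf8, Cd68, C1qa and Fcgr1 were chosen after they had been seen. So were the ratio to Csf1r, the sums without leading genes, the motif TGACGTCA and the alternative with voom. The pseudocount, the filter, the scaling, the prior and the set of mice were varied, and a block for replicate number was tried. 1 listed gene is not reported here.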

Additional observations from a re-analysis of the deposited data

How the results depend on the processing

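Under the 16 alternatives, all 7 class II genes stayed lower in pretreated mice than in AP mice and than in saline mice, and in AP against saline mice 6 stayed higher. The exception was Ciita, whose log2 difference in AP against saline turned to -0.29 with median-of-ratios scaling, -0.050 with voom on estimated reads (an alternative chosen after seeing the data), -0.0056 without saline replicate 2 and -0.74 without AP replicate 2, with leaving out 1 mouse giving -0.74 to 1.007 in all. The calls were less stable than the directions, and the cause was not tested. In AP against saline, the 2 calls became 1 with median-of-ratios scaling (median 0.53), 1 with a prior without a trend and 1 with only the 2 groups fitted. In pretreated against AP, the 3 calls became 0 with no filter on low values, 0 with either other prior and 0 with only the 2 groups fitted, while 6 or 7 genes in each of these limma fits were lower at an unadjusted p of at most 0.05 and 2-fold. In pretreated against saline, the 2 calls became 1 with no filter, 6 with median-of-ratios scaling (median -1.45), 0 with a prior without a trend and 1 with a prior following the mean log2 value. That scaling turned the calls over all genes there from 2838 higher and 500 lower into 1289 and 1003.

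Leaving out each mouse in turn gave 0 to 4 calls with medians of 0.60 to 1.44 in AP against saline, 0 to 0 calls with medians of -2.54 to -1.58 in pretreated against AP, and 0 to 3 calls with medians of -1.37 to -0.74 in pretreated against saline. The lone mouse of a group is then assumed to vary like the others. Across all tested genes, same-numbered mice showed no shared deviation (correlations of 0.0075, -0.00385 and 0.0351). A correlation over all genes cannot exclude a pairing that touched only some of them. With the replicate number as a block, 2, 2 and 2 genes were called in the 3 comparisons. In saline mice 1 read was worth about 0.169 and 0.208 TPM for a gene of median length, against 0.0749 to 0.116 TPM in the other mice.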
